A study of Mus musculus with 8 samples.

Results

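The genes described here are 10 components and targets of the canonical Wnt pathway, taken by name from the 22878 gene entries that each library of the series holds: Ctnnb1, Axin2, Lef1, Tcf7, Tcf7l1, Tcf7l2, Sp5, Dkk1, Sfrp1 and Nkd1. All 10 were found, each in 1 entry, and 9 reached the level needed for testing, the exception being Dkk1. RNA-seq was performed on the mouse embryonic stem cell (ESC) line R1 and on 4 second-generation induced pluripotent stem cell (iPSC) lines, which were 16-6, 32, S8 and T2. These iPSCs were reprogrammed from somatic cells of 8-week-old all-iPSC mice, which carry doxycycline-inducible reprogramming factors in all of their cells. The starting cells were of the mesoderm for 16-6 (hematopoietic) and 32 (adipocyte progenitor), ectodermal for S8 (epidermis) and endodermal for T2 (lining of the stomach). All 5 lines were grown on mitomycin C-treated mouse embryonic fibroblast (MEF) feeders in medium with serum and LIF, with no Wnt agonist or inhibitor named. R1, 16-6 and 32 had 2 libraries each and S8 and T2 had 1 each, so each origin was represented by a single line, and a line, its origin and its passage history cannot be told apart. GEO's labels name embryo as the tissue of every sample, whereas the cell line field and the study's methods describe cultured cells.

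In the canonical Wnt pathway, secreted Wnt ligands bind Frizzled receptors with their LRP coreceptors and stop a destruction complex, built on Axin, from marking beta-catenin for degradation. Beta-catenin then enters the nucleus and acts with the TCF/LEF transcription factors on target genes, several of which encode inhibitors of the pathway itself. In mouse ESCs the pathway favours self-renewal, mainly by relieving the repression that Tcf7l1 exerts on pluripotency genes, and it also permits expression of primitive streak genes.

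The labelled cell type was checked against its markers. All 8 listed pluripotency genes stood above an FPKM of 1 in each library, FPKM being the fragments per unit of transcript length and of sequencing depth, here divided by 1 constant for all libraries. The summed FPKM of 12 fibroblast marker genes was 968 and 1003 in R1, 1749 and 1732 in 16-6, 70.3 and 70.1 in 32, 410 in S8 and 598 in T2, so that fibroblast RNA was lowest in 32. The summed FPKM of the pluripotency genes was 4044 and 4407 in R1, 2605 and 2669 in 16-6, 5101 and 4299 in 32, 5304.5 in S8 and 3516 in T2. That of 4 neural progenitor markers was 13.2 and 13.5 in R1, 46.2 and 44.7 in 16-6, 30.7 and 30.6 in 32, 16.3 in S8 and 32.2 in T2. The part of these differences in the results was not tested. In bulk RNA, fewer cells of a type and less RNA per cell cannot be told apart. The confidence limits of the files imply between 15.5 and 16.7 fragments per library in units of 1000000. The study, however, lists several times more reads for S8 and T2 than for the other libraries, with a lower share mapped uniquely. The implied numbers do not show that difference, and its part in the results was not tested. The FPKM that 1 fragment was worth, relative to the first R1 library, varied between genes with an SD of 0.31 (log2) in S8 and 0.26 in T2, against 0.03 to 0.08 in the other libraries, over 3262 genes, and in each of these libraries it tracked GC content (Spearman's rho 0.63 in S8, 0.54 in T2 and from 0.50 to 0.73 in the others, a description across genes), so that S8 and T2 differed from the rest in the size of this variation. For the 6 tested members with 1 start site, differences from R1 are also given on the scale of implied fragments.

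Sp5, whose product is a zinc-finger repressor induced directly by Wnt signalling, was the member that varied most between the lines, and the sequence before its start is shown first. In the 250 bases before the start given in the files, 4 heptamers bound by TCF/LEF factors were searched on both strands, namely CTTTGAA, the same with a final T (CTTTGAT), and the forms with T as the base after the G, which are CTTTGTA where they end in A and CTTTGTT where they end in T. Of the 10 members, 3 held a match (Sp5, Dkk1 and Nkd1), against 13.1% of the 21883 genes whose window was read. The windows of Sp5 and Nkd1, which overlap no annotated exon, and the stretch of Dkk1 that spans its matches are shown because they are the only matches among the members. Sequences are 5' to 3' on the gene's strand in NCBIM37 (mm9), and capitals mark the matches.

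Sp5, chr2:70312730-70312979, plus strand: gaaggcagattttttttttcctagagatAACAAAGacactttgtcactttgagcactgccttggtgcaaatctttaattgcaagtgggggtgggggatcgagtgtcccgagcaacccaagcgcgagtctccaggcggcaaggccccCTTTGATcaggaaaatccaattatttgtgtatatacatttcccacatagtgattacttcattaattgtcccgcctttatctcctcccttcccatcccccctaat

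Nkd1, chr8:91044993-91045242, plus strand: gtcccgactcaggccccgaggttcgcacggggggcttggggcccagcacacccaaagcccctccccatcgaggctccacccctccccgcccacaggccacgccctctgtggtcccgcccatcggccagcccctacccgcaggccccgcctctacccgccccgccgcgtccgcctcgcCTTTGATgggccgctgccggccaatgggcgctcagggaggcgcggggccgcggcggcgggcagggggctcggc

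Dkk1, chr19:30624078-30624103, minus strand: CTTTGAAatcccatcccggCTTTGTT

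The Sp5 window holds CTTTGTT on the antisense strand, beginning 222 bases before the start, and CTTTGAT on the sense strand, beginning 104 bases before it. The single match of Nkd1 (CTTTGAT) begins 73 bases before its start, and in Dkk1 the match CTTTGAA begins 117 bases and the match CTTTGTT begins 98 bases before the start in the files, inside a longer first exon that the GENCODE annotation gives. No match was found in the windows of Ctnnb1, Axin2, Lef1, Tcf7, Tcf7l1, Tcf7l2 and Sfrp1. The window of Tcf7l1 lies wholly inside an exon of that gene in the GENCODE annotation, so no sequence outside an exon was read for it. A match is a description of the letters and not a measured binding site.

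A gene was called between lines where its Benjamini-Hochberg adjusted p in limma was below 0.05 and its difference in log2(FPKM + 1) was at least 1, that is 2-fold. Among the 9 members tested, Sp5 was called higher in 16-6 than in R1, lower in S8 than in R1 and lower in S8 than in T2, and no other member was called between these pairs. The background of the whole table was 7.11% of 13693 genes called between 16-6 and R1 (3.58% higher and 3.53% lower in 16-6), 16.7% between S8 and R1 (6.93% higher and 9.74% lower in S8) and 2.75% between S8 and T2 (0.92% higher and 1.83% lower in S8). No member was called for 32 against R1, T2 against R1 or 16-6 against 32, where 9.77% (1.54% higher and 8.23% lower in 32), 10.5% (3.95% higher and 6.54% lower in T2) and 10.3% (9.22% higher and 1.09% lower in 16-6) of all genes were called. Members at an adjusted p below 0.05 with no minimum on the difference numbered 6 for 16-6, 7 for 32, 7 for S8 and 3 for T2 against R1, 8 for 16-6 against 32 and 4 for S8 against T2, and an unadjusted p below 0.05 added 1 member in each of the last pair of comparisons. At these levels no share of all genes is given for single pairs, so these counts are not read as a result about the members. The median difference over the members was -0.02 in 16-6, 0.15 in 32, 0.07 in S8 and 0.10 in T2 against R1, beside medians of -0.03, -0.02, -0.03 and -0.03 over all genes tested. A test across the 5 lines at once called Sp5 and Lef1, 2 of 9 (Sp5 alone without S8 and T2, under quantile normalization or on implied fragments), beside 34.5% of all genes, and with no minimum all 9 passed, beside 88.4% of all genes.

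**Figure D1:**
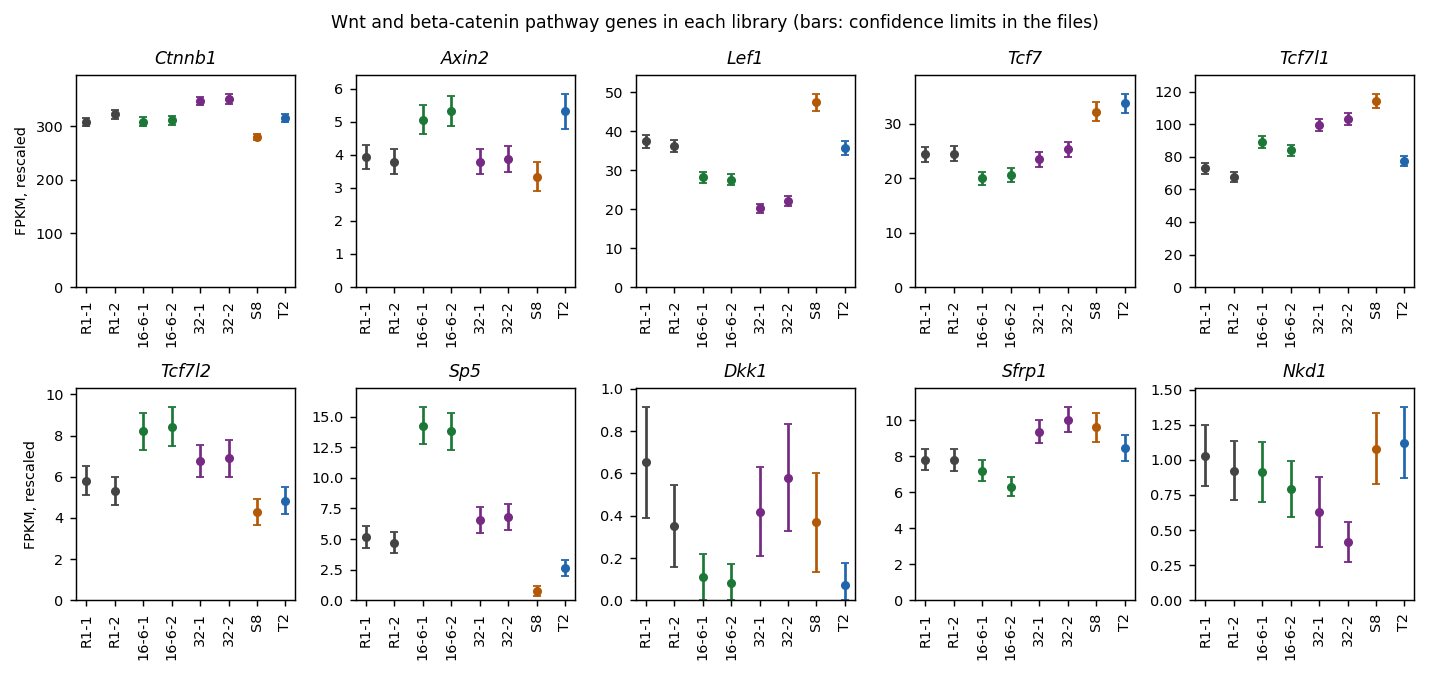
FPKM of the 10 members in each library (horizontal axis), with a vertical axis from 0 in each panel, points for single libraries, bars for the confidence limits in the files and 1 colour per line. Sp5 ran from 0.764 in S8 to 14.3 in 16-6, while Ctnnb1 stayed between 281 and 351 and Dkk1 stayed below 1 in all 8 libraries.

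Sp5 (chr2:70312980-70315783, plus strand) stood at 5.17 and 4.72 FPKM in R1, 14.3 and 13.8 in 16-6, 6.56 and 6.79 in 32, 0.764 in S8 and 2.66 in T2. The levels of the 5 lines did not overlap, with both libraries of 16-6 above every other and S8 below every other. These values rest on 141 and 130 fragments in R1, 354 and 349 in 16-6, 160.0 and 167 in 32, 15 in S8 and 64 in T2, and the confidence limits of the S8 value were 0.369 and 1.16. The SE of a difference with S8 or T2 comes from the spread of the replicated lines. It does not take up the counting error of 15 and 64 fragments, so that SE and adjusted p are likely too small. Against R1, Sp5 was higher in 16-6 by 1.34 on the log2 scale (SE 0.06, adjusted p = 1.91e-04), a 2.84-fold ratio of mean FPKM. Its difference in S8 was -1.75 (SE 0.08, adjusted p = 1.13e-04), a level 6.47-fold lower. Between S8 and T2 the difference was -1.05 (SE 0.09, adjusted p = 0.00303), and -0.97 under quantile normalization, which ends the call, and -1.14 on implied fragments. In 32 it differed by 0.37 (adjusted p = 0.00589) and in T2 by -0.70 (adjusted p = 0.00173), both under the 2-fold minimum. All neighbours in the order 16-6, 32, R1, T2, S8 were apart at an adjusted p below 0.05. On the scale of implied fragments the order was kept, with differences from R1 of 1.21, 0.21, -2.05 and -0.91 in 16-6, 32, S8 and T2, of which that of 32 no longer passed (adjusted p = 0.0674). Over all alternatives the difference stayed between 1.21 and 1.49 for 16-6 and between -2.54 and -1.55 for S8. The fibroblast sum, like Sp5, was highest in 16-6, but it was lowest in 32 and Sp5 in S8, and its part in these differences was not tested.

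Axin2, a scaffold of the destruction complex and a general Wnt target (chr11:108781663-108812095, plus strand), varied far less than Sp5. It stood at 3.93 and 3.80 FPKM in R1, 5.07 and 5.33 in 16-6, 3.80 and 3.87 in 32, 3.34 in S8 and 5.32 in T2. The 16-6 and T2 libraries were the high ones, and those of R1 and 32 overlapped. The difference from R1 was 0.35 in 16-6 (SE 0.06, adjusted p = 0.00603) and 0.38 in T2 (SE 0.07, adjusted p = 0.00875), -0.01 in 32 (adjusted p = 0.912) and -0.16 in S8 (adjusted p = 0.0969). For T2 the direction turned on the scale of implied fragments, to -0.10 (adjusted p = 0.459), since Axin2 had 412 fragments there and 447 and 405 in R1. For S8 that scale gave -0.72 (SE 0.10, adjusted p = 0.00468) from 230 fragments, whereas quantile normalization gave 0.10. Higher Axin2 in 16-6 kept its direction in all 18 alternatives, from 0.23 to 0.42, with adjusted p values up to 0.088. Several of these alternatives, such as those of the filter or the fold minimum, cannot change a difference. Sp5 and Axin2 were both above R1 in 16-6, whereas T2 had the highest Axin2 in FPKM and, after S8, the lowest Sp5.

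Nkd1 (chr8:91045243-91118786, plus strand) encodes an inhibitor that binds Dishevelled and is itself a Wnt target, and it was scarcely expressed. Its FPKM was 1.03 and 0.923 in R1, 0.914 and 0.794 in 16-6, 0.627 and 0.414 in 32, 1.08 in S8 and 1.12 in T2. Both libraries of 32 were the lowest, and the other lines lay close together. Against R1 the difference was -0.38 in 32 (SE 0.10, adjusted p = 0.0232) and between -0.09 and 0.10 in the other lines, with adjusted p values from 0.470 to 0.616. The value of 32 was -0.016 under quantile normalization (adjusted p = 0.917) and did not pass without either R1 library or without the second library of 32. No neighbours in the order T2, S8, R1, 16-6, 32 were apart at an adjusted p below 0.05.

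Beta-catenin itself, encoded by Ctnnb1 (chr9:120842518-120869625, plus strand), was the most highly expressed member. It stood at 308 and 323 FPKM in R1, 308 and 312 in 16-6, 348 and 351 in 32, 281 in S8 and 316 in T2. The R1, 16-6 and T2 libraries overlapped, 32 lay above them and S8 below. The ratio of the highest to the lowest line mean was 1.24. The difference from R1 was 0.15 in 32 (95% interval 0.05 to 0.25, adjusted p = 0.0253) and -0.17 in S8 (-0.29 to -0.04, adjusted p = 0.0309), and those of 16-6 (-0.13 to 0.08) and T2 (-0.12 to 0.13) did not pass. The value of 32 turned to -0.12 under quantile normalization and to -0.19 with equal library totals, and that of S8 became -0.55 under quantile normalization. RNA level does not measure the amount of beta-catenin protein, which the pathway regulates by degradation.

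The 4 TCF/LEF genes encode the DNA-binding partners of beta-catenin, of which Tcf7l1 acts mainly as a repressor in ESCs and Lef1 and Tcf7 mainly as activators. Tcf7l1 held the largest share of their summed FPKM in each library, 51.9% and 50.7% in R1, 61.3% and 59.8% in 16-6, 66.5% and 65.6% in 32, 57.7% in S8 and 51.1% in T2. The share of Lef1 was 26.6% and 27.0% in R1 and 13.4% and 14.0% in 32, the lowest of the lines, and that of Tcf7l2 ranged from 2.16% in S8 to 6.00% in 16-6. FPKM is a value per length, but equal weights per fragment between genes were not shown, since weights were taken relative to the first R1 library. In S8 and T2 the shares also carry the unequal weights per fragment given further on.

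**Figure D2:**
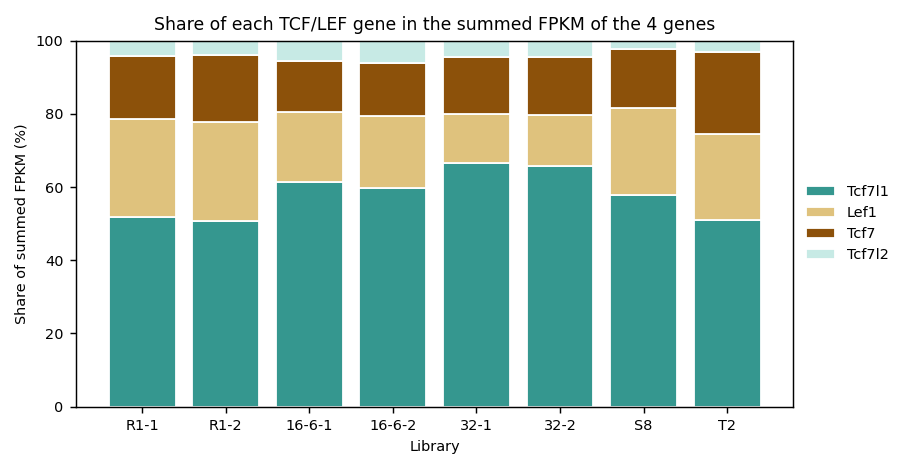
Share of Tcf7l1, Lef1, Tcf7 and Tcf7l2 in their summed FPKM (vertical axis, percent) in each library (horizontal axis). Tcf7l1 takes from 50.7% to 66.5% of the sum, and the share of Lef1 falls from 27.0% in an R1 library to 13.4% in a library of 32.

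Lef1 (chr3:130813389-130926249, plus strand) stood at 37.4 and 36.1 FPKM in R1, 28.1 and 27.6 in 16-6, 20.2 and 22.1 in 32, 47.4 in S8 and 35.7 in T2. The libraries of 32 were the lowest, those of 16-6 came next, and neither overlapped with the other lines. The difference from R1 was -0.77 in 32 (SE 0.05, adjusted p = 3.50e-04) and -0.39 in 16-6 (SE 0.05, adjusted p = 0.00339), the mean of 32 being 1.74-fold lower. Over the alternatives the value of 32 ran from -1.09 to -0.71 and that of 16-6 from -0.48 to -0.36, with adjusted p values of at most 0.0269. The 2 mesoderm-derived lines also differed from each other, by 0.39 (SE 0.05, adjusted p = 0.00280). S8 was higher than R1 by 0.36 in FPKM (adjusted p = 0.00638), but its 1952 fragments were fewer than the 2169 and 2074 of R1, and on that scale the difference turned to -0.17 (adjusted p = 0.160). T2 differed by -0.04 (adjusted p = 0.617) in FPKM and by -0.39 (adjusted p = 0.0208) in implied fragments.

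Tcf7l1 (chr6:72576374-72738950, minus strand) had 73.0 and 67.9 FPKM in R1, 89.1 and 84.2 in 16-6, 99.9 and 104 in 32, 115 in S8 and 77.6 in T2. All 6 iPSC libraries lay above both R1 libraries. The difference was 0.29 in 16-6 (SE 0.05, adjusted p = 0.00798), 0.52 in 32 (SE 0.05, adjusted p = 0.00106), 0.69 in S8 (SE 0.07, adjusted p = 6.53e-04) and 0.14 in T2 (adjusted p = 0.130). On implied fragments these became 0.22, 0.48, 0.47 and 0.07, with the same 3 lines past an adjusted p of 0.05. With equal library totals, which shifts the median gene of 32 against R1 to -0.31, the difference of 32 was 0.19 (adjusted p = 0.0858). In the order S8, 32, 16-6, T2, R1, the neighbours 32 and 16-6 alone were apart, and this difference of -0.23 for 16-6 against 32 turned to 0.10 with equal library totals.

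Tcf7 (chr11:52066106-52095752, minus strand) had 24.4 and 24.5 FPKM in R1, 19.96 and 20.5 in 16-6, 23.4 and 25.3 in 32, 32.2 in S8 and 33.8 in T2. The 16-6 libraries were low, those of R1 and 32 overlapped, and S8 and T2 were high. The difference of 16-6 from R1 was -0.26 (SE 0.05, adjusted p = 0.00910) and became -0.37 on implied fragments (adjusted p = 0.0121). The differences of S8 (0.39, adjusted p = 0.00349) and T2 (0.45, adjusted p = 0.00290) in FPKM became -0.03 (adjusted p = 0.761) and 0.14 (adjusted p = 0.212) on that scale.

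Tcf7l2 (chr19:55816300-56008145, plus strand) was the least abundant of the 4, at 5.82 and 5.30 FPKM in R1, 8.22 and 8.44 in 16-6, 6.78 and 6.90 in 32, 4.30 in S8 and 4.85 in T2. The libraries of 16-6 were the highest, those of 32 came next, and S8 and T2 were the lowest. Against R1 it was higher in 16-6 by 0.51 (SE 0.06, adjusted p = 0.00222) and in 32 by 0.26 (adjusted p = 0.0180, turning to -0.03 with equal library totals), and it differed by -0.31 in S8 (adjusted p = 0.0178) and by -0.16 in T2 (adjusted p = 0.123). The gene has more than 1 start site, so no fragment number is given.

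Of the secreted antagonists, Sfrp1 sequesters Wnt ligands and Dkk1 blocks the LRP coreceptors. Sfrp1 (chr8:24521974-24560104, plus strand) had 7.81 and 7.80 FPKM in R1, 7.19 and 6.33 in 16-6, 9.37 and 10.05 in 32, 9.62 in S8 and 8.48 in T2. The 16-6 libraries were the lowest and those of 32 and S8 the highest. The difference between 16-6 and 32 was -0.47 (SE 0.07, adjusted p = 0.00419), and in the order 32, S8, T2, R1, 16-6 no neighbours were apart at an adjusted p below 0.05. For S8 the difference from R1 turned from 0.27 (adjusted p = 0.0465) to -0.29 (adjusted p = 0.0426) on implied fragments, and for T2 from 0.11 (adjusted p = 0.360) to -0.40 (adjusted p = 0.0195). The value of 32 against R1, 0.28 (adjusted p = 0.0234), became -0.02 with equal library totals. Fibroblasts can express Sfrp1, and its lowest line, 16-6, had the highest fibroblast sum and its highest, 32, the lowest, the part of which was not tested.

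Dkk1 (chr19:30620374-30623986, minus strand) had 0.653 and 0.350 FPKM in R1, 0.110 and 0.0799 in 16-6, 0.420 and 0.580 in 32, 0.370 in S8 and 0.0723 in T2. These values rest on 25 and 13 fragments in R1, 4 and 3 in 16-6, 16 and 21 in 32, 10 in S8 and 2 in T2. The 16-6 and T2 libraries lay below all others, and those of R1, 32 and S8 overlapped. Dkk1 was below an FPKM of 1 in each library and entered no test, and no difference between lines is claimed from counts this small.

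**Figure D3:**
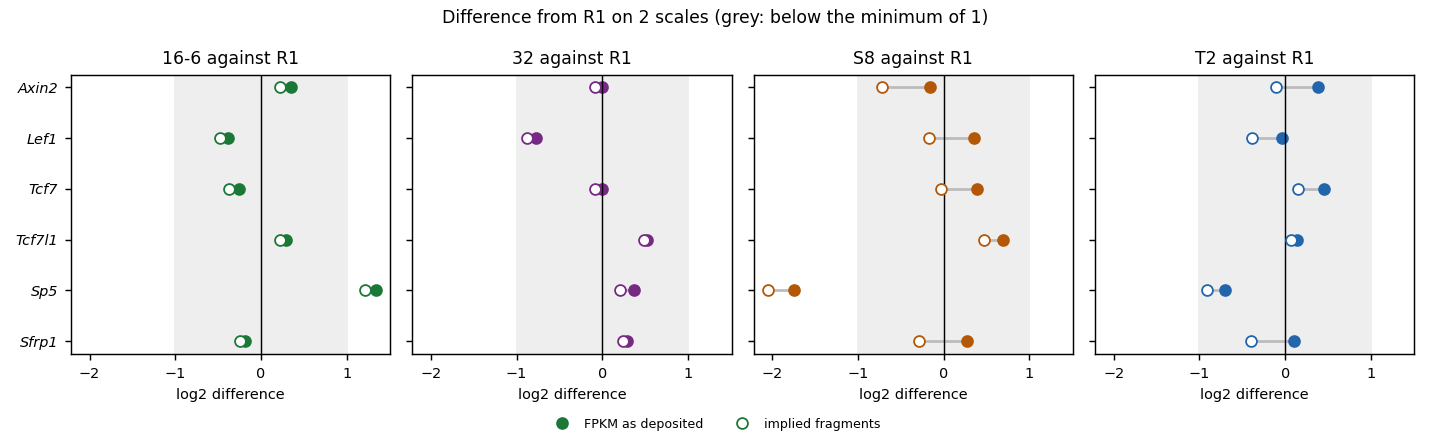
Log2 difference from R1 (horizontal axis) of the 6 tested members with 1 start site (vertical axis), 1 panel per iPSC line, with filled points for FPKM as deposited and open points for implied fragments. The points keep their side in 16-6 and 32, though Axin2 moves from 0.35 to 0.23 in 16-6 and Sp5 from 0.37 to 0.21 in 32. In S8 Lef1, Tcf7 and Sfrp1 and in T2 Axin2 and Sfrp1 change side, and Sp5 stays at -1.75 and -2.05 in S8.

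The gap between these scales comes, by construction, from the weight of a fragment, from scaling each library to its total of implied fragments, and from adding 1 before the log. Relative to the first R1 library, 1 fragment of Axin2 was worth 0.72 (log2) more in S8 and 0.55 more in T2, that of Sfrp1 0.61 and 0.53, Lef1 0.49 and 0.29, Sp5 0.47 and 0.18, Tcf7 0.41 and 0.27, and Tcf7l1 0.10 and -0.07. In 16-6 and 32 no member changed direction against R1 between the scales.

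The genes with the profile most like that of a member were those with the smallest root mean square difference of centred log2(FPKM + 1) over the 8 libraries. For Sp5, with a range of 3.11, these were Atp2b4 (0.27), Ahnak (0.33) and Nt5e (0.35). Genes picked as the nearest of all tested are near by construction, and the weights of S8 and T2 enter these profiles too. For Lef1, with a range of 1.19, they were Hsd3b7 (0.05), Evpl (0.07) and Stard5 (0.08). The nearest to Ctnnb1, with a range of 0.32, was Ube2q2 (0.03), and the nearest to Tcf7l1, with a range of 0.75, was Med8 (0.04).

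The other genes of the pathway were taken from lists by role, of which 107 genes were in the files and 89 were tested. Of these 89, 16 were called between 16-6 and R1 (13 higher and 3 lower in 16-6), 13 between 32 and R1 (4 and 9), 18 between S8 and R1 (6 and 12), 19 between T2 and R1 (8 and 11), 17 between 16-6 and 32 (13 and 4) and 5 between S8 and T2 (1 and 4). These are 18.0%, 14.6%, 20.2%, 21.3%, 19.1% and 5.62% of the list, beside 7.11%, 9.77%, 16.7%, 10.5%, 10.3% and 2.75% of all genes tested. The counts by role that follow rest on few genes each and stand beside the same shares of all genes. For counts at an unadjusted p no share of all genes is given, and they are not read as a result. The list's median difference from R1 was 0.15 in 16-6, 0.10 in 32, -0.17 in S8 and 0.14 in T2. These genes are given in FPKM only, so that the gene-by-gene weights of S8 and T2 apply to their values too.

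**Figure D4:**
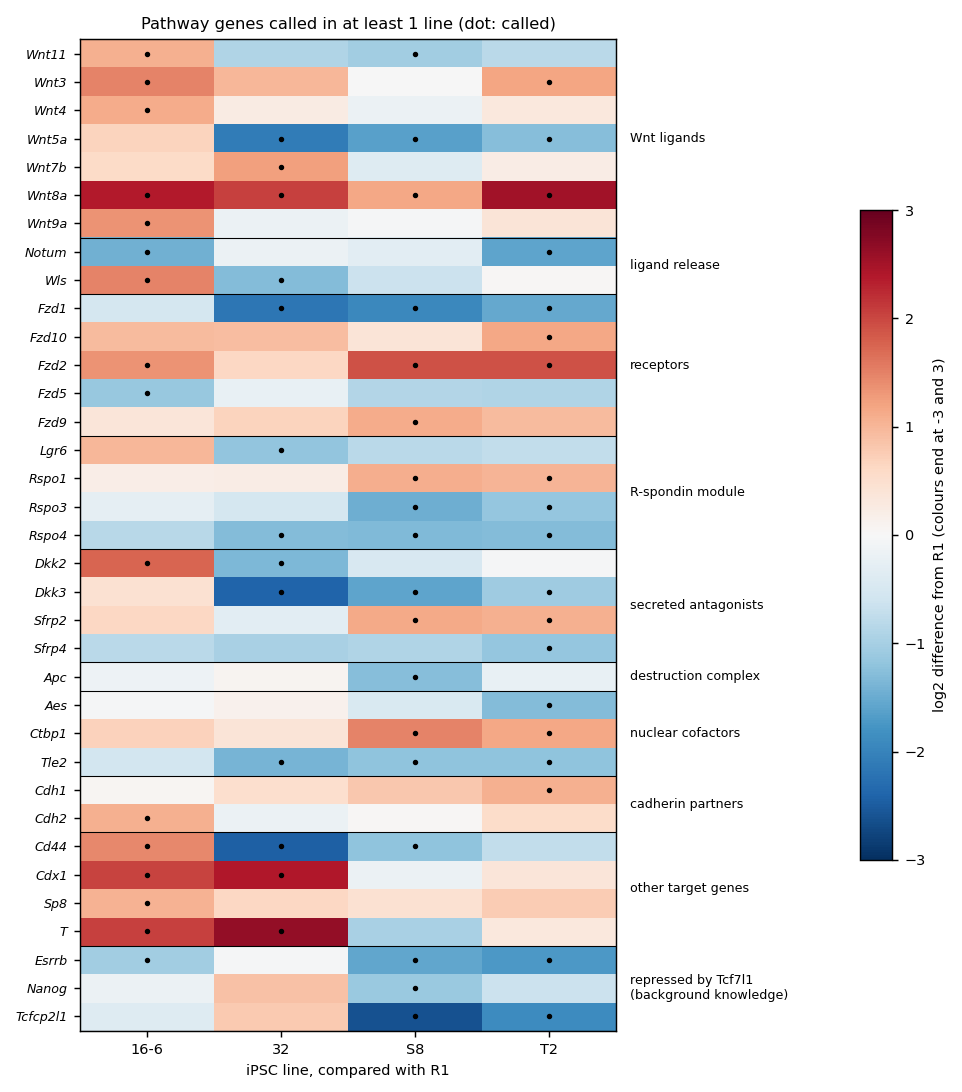
Log2 difference from R1 (colour, ending at -3 and 3) in each iPSC line (horizontal axis) for the 35 pathway genes called in at least 1 line (vertical axis, grouped by role), with a dot where a gene was called. Wnt8a is red with a dot in all 4 lines, and Wnt5a, Fzd1 and Dkk3 are blue with a dot in 32, S8 and T2.

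Among the Wnt ligands, 9 of 19 were tested and Wnt5a and Wnt7b had the highest mean FPKM, 9.69 and 5.86. Wnt8a, which signals through beta-catenin in the early embryo, rose in all 4 iPSC lines, from 0.868 and 0.648 FPKM in R1 to 8.23 and 8.08 in 16-6, 6.04 and 6.50 in 32, 2.91 in S8 and 9.05 in T2. Its differences from R1 were 2.38, 2.05, 1.16 and 2.52 in that order. Wnt3, required for the primitive streak, was low, with line means of 0.544 FPKM in R1, 3.37 in 16-6, 2.09 in 32, 0.527 in S8 and 2.49 in T2. It rose by 1.498 in 16-6 and by 1.18 in T2, and its difference in 32 was 0.999, just under the 2-fold minimum. In S8 it differed from R1 by -0.02 and was lower than in T2 by 1.19 (difference -1.19). Wnt5a, which mostly acts outside the beta-catenin branch, stood at 12.4 in both R1 libraries, 19.3 and 21.4 in 16-6, 2.11 and 2.11 in 32, 3.32 in S8 and 4.50 in T2. It was called lower than R1 in 32 (-2.11), S8 (-1.63) and T2 (-1.28) and higher in 16-6 than in 32 (2.78). The order of its line means (16-6, R1, T2, S8, 32) is that of the fibroblast sums given above, and the part of feeder RNA in it was not tested. In all, 5, 3, 3 and 3 ligands were called against R1 in 16-6, 32, S8 and T2, 3 between 16-6 and 32, and 2 between S8 and T2.

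Of the genes for ligand release, Wls, which carries Wnt proteins to the cell surface, had 11.7 and 14.8 FPKM in R1, 39.4 and 38.7 in 16-6, 5.09 and 4.39 in 32, 8.03 in S8 and 13.6 in T2. It rose by 1.4997 in 16-6 and fell by 1.31 in 32, again with the highest and lowest lines being those of the fibroblast sum. Notum, an extracellular enzyme that inactivates Wnt and is a Wnt target, had 17.4 and 17.3 FPKM in R1, 5.90 and 5.54 in 16-6, 14.8 and 15.5 in 32, 13.7 in S8 and 5.18 in T2. It fell by 1.45 in 16-6 and by 1.57 in T2. Porcn, the acyltransferase that lipidates Wnt, was not called in any comparison and had a mean of 23.0 FPKM.

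All 15 receptor genes were tested, Ryk and Fzd7 being the most abundant with means of 49.8 and 49.1 FPKM. Fzd2 had 3.51 and 4.33 FPKM in R1, 11.7 and 11.1 in 16-6, 5.85 and 7.31 in 32, 17.4 in S8 and 17.5 in T2, and rose in 16-6 (1.34), S8 (1.91) and T2 (1.92). Fzd1 had 9.09 and 10.3 FPKM in R1 and 1.37 and 1.38 in 32, and fell by 2.17 in 32, by 1.92 in S8 and by 1.52 in T2. Its line means in T2 (2.71), S8 (1.81) and 32 (1.38) had the order of the fibroblast sums, whereas 16-6 (6.40) lay below R1 (9.69), and the part of feeder RNA in it was not tested. Fzd5 fell by 1.13 in 16-6. The called receptors were 2, 1, 3 and 3 against R1 in 16-6, 32, S8 and T2, 1 between 16-6 and 32 and 0 between S8 and T2, where limma gave 8 an unadjusted p below 0.05. These are 13.3%, 6.67%, 20%, 20%, 6.67% and 0% of the receptors, beside 7.11%, 9.77%, 16.7%, 10.5%, 10.3% and 2.75% of all genes. Of the R-spondin group, which raises receptor levels through the Lgr proteins and the ligases Rnf43 and Znrf3, 6 of 9 genes were tested and 0, 2, 3 and 3 were called against R1 in 16-6, 32, S8 and T2, with 3 at an unadjusted p below 0.05 in 16-6. Lgr4, at a mean of 52.0 FPKM, and Znrf3, at 4.76, were the most abundant. Rspo4 fell from 2.09 and 1.71 FPKM in R1 by 1.30 in 32, 1.33 in S8 and 1.30 in T2, and Rspo3 fell by 1.47 in S8 and by 1.16 in T2, the T2 call being lost without the first R1 library (-0.99) and under quantile normalization (-0.96). Rspo1 went the other way, by 1.08 in S8 and 1.03 in T2, to 2.34 and 2.22 FPKM from a mean of 0.586 in R1. Lgr6 fell by 1.18 in 32 (-0.83 under quantile normalization) and was 2.17 higher in 16-6 than in 32. Its line means had the order of the fibroblast sums, whose part in it was not tested.

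Of 9 other secreted antagonists tested, 1, 2, 2 and 3 were called against R1 in 16-6, 32, S8 and T2, and 4 between 16-6 and 32, all higher in 16-6. Dkk2 had 2.62 and 2.92 FPKM in R1, 11.9 and 11.4 in 16-6, 0.466 and 0.506 in 32, 1.70 in S8 and 2.69 in T2, and rose by 1.75 in 16-6 and fell by 1.34 in 32. Dkk3 had 10.1 in both R1 libraries, 14.7 and 13.8 in 16-6, 1.16 and 1.05 in 32, 2.69 in S8 and 4.30 in T2. These 2 genes were, with the fibroblast sum, highest in 16-6 and lowest in 32, unlike Dkk1 and Sfrp1, and the part of feeder RNA in them was not tested. Sfrp2 rose by 1.13 in S8 and by 1.07 in T2, to 29.7 and 28.5 FPKM from 12.5 and 13.6 in R1.

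Of the 3 Dishevelled genes and their inhibitor Nkd2, 0 were called against R1 in limma, while 4, 3, 3 and 2 had an unadjusted p below 0.05 in 16-6, 32, S8 and T2. Of the 11 destruction complex genes, Apc alone was called against R1, in S8, at 9.57 FPKM against 25.2 and 24.2 in R1 (-1.28) and 21.0 in T2. Csnk1a1, its most abundant gene, kept between 176 and 217 FPKM. The 15 nuclear cofactors gave 0, 1, 2 and 3 calls against R1. Tle2, a corepressor of TCF factors, was lower in 32 (-1.41), S8 (-1.20) and T2 (-1.21). It was scarce, with a mean of 2.57 FPKM in R1, 0.349 in 32, 0.556 in S8 and 0.541 in T2. The other Tle genes of the list were more abundant and were not called. Ctbp1 rose by 1.49 in S8, to 93.9 FPKM from a mean of 32.9 in R1, and had 74.5 in T2. Aes fell by 1.30 in T2. Of the adhesion partners of beta-catenin, Cdh1 rose by 1.07 in T2, from 155 and 151 FPKM in R1 to 322, and Cdh2 rose by 1.07 in 16-6.

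Of 8 further target genes, 4, 3, 1 and 0 were called against R1 in 16-6, 32, S8 and T2, with 3 at an unadjusted p below 0.05 in T2. Brachyury (T), the primitive streak factor, had line means of 2.08 FPKM in R1, 11.7 in 16-6, 18.1 in 32, 0.578 in S8 and 2.85 in T2. It rose by 2.05 in 16-6 (SE 0.08, adjusted p = 1.40e-04) and by 2.64 in 32 (SE 0.08, adjusted p = 3.84e-05), and was lower in S8 than in T2 (-1.29). The caudal factor Cdx1 had 0.584 and 0.122 FPKM in R1, 5.03 and 3.83 in 16-6, 5.29 and 6.84 in 32, 0.187 in S8 and 0.712 in T2, and rose by 2.02 in 16-6 and by 2.40 in 32. These genes were highest in the mesoderm-derived lines, as was the summed FPKM of 6 primitive streak markers, T among them, at 6.94 and 6.79 in R1, 23.7 and 23.2 in 16-6, 38.8 and 38.5 in 32, 6.63 in S8 and 11.6 in T2. Sp5 was higher in 16-6 than in 32 by 0.97, whereas T was lower there, by -0.59. Cd44, a surface receptor that fibroblasts also carry, was 3.89 higher in 16-6 than in 32, and its line means had the order of the fibroblast sums, whose part in it was not tested.

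Of 4 pluripotency genes known to be repressed by Tcf7l1 in ESCs, 1, 0, 3 and 2 were called against R1 in 16-6, 32, S8 and T2. All these calls were lower than R1. In 32, 2 had an unadjusted p below 0.05 in limma, and the median difference of the list was 0.39. Nanog had line means of 176 FPKM in R1, 156 in 16-6, 324 in 32, 80.8 in S8 and 112 in T2. Klf2 was not called, with 273, 156, 272, 264 and 169 FPKM in that order. Tcfcp2l1 had 56.3 and 54.6 FPKM in R1, 42.0 and 42.5 in 16-6, 95.8 and 96.4 in 32, 8.21 in S8 and 14.3 in T2, and fell by 2.61 in S8 and by 1.88 in T2. Esrrb had 184 and 175 FPKM in R1, 86.4 and 87.1 in 16-6, 172 and 178 in 32, 60.2 in S8 and 53.4 in T2, and fell by 1.04 in 16-6, by 1.56 in S8 and by 1.73 in T2. Nanog was lower in 16-6 than in 32 by 1.05 (difference -1.05, or -0.86 under quantile normalization).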

How the data were processed

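Reads from 8 libraries of 5 cell lines were mapped by the authors to mm9 with TopHat 2.0.4, and the deposited FPKM with confidence limits came from Cufflinks (2.0.0 in the submitters' processing notes). Libraries were grouped by their labels. Replicates are called biological, but separate cultures are not stated, so p-values measure the spread between libraries. In implied fragments, the variance between replicates was 1.44 (R1), 1.11 (16-6) and 1.42 (32) times that of counting noise. This spread may therefore be smaller than that between separate cultures, which the p-values do not measure. FPKM were divided by 12725.7, one constant that leaves ratios as they were. Fragments were estimated from the confidence limits, as the square of 2 x FPKM over the distance to the upper limit. They cover counting error only. The 13693 genes that reached an FPKM of 1 in any library were fitted as log2(FPKM + 1) with limma 3.58.1 (lmFit, eBayes with a trend) in R 4.3.3, over 8 libraries in 5 groups with 3 residual degrees of freedom, S8 and T2 being assumed to vary like the replicated lines. Fold changes on this scale understate those of low genes. The fit was tested on simulated data. Pathway genes named were at most 2 per role and comparison, by the size of the called difference, and the 2 with the highest FPKM. Rspo1 was added because its called differences went the other way from those of its group. The members and lists were chosen with earlier results of these data known. Upstream windows came from NCBIM37 and strands from GENCODE M1. Alternatives are given in the closing section. The remaining steps used Python 3.11.15 and pandas 2.3.3.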

Additional observations from a re-analysis of the deposited data

Results flagged for a closer look

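Line pairs were singled out where both differed from R1 at an adjusted p below 0.05 in opposite directions and the limma contrast between them was itself called. For Sp5 this held for 4 pairs. The difference was 3.09 between 16-6 and S8 (SE 0.08, adjusted p = 3.51e-05), 2.04 between 16-6 and T2 (adjusted p = 1.84e-04), 2.12 between 32 and S8 (adjusted p = 1.35e-04) and 1.07 between 32 and T2 (adjusted p = 7.91e-04), with every library of the mesoderm-derived lines above R1 and both single libraries below it. Against R1, 32 no longer passed on implied fragments (0.21, adjusted p = 0.0674) or with equal library totals (0.08, adjusted p = 0.439), so that the 2 pairs with 32 did not meet the condition there. On implied fragments the contrasts of the 4 pairs were 3.26, 2.12, 2.26 and 1.12, all called. For Lef1 the difference between 32 and S8 was -1.13 (SE 0.07, adjusted p = 2.71e-04). The S8 side of the Lef1 pair turned on implied fragments, where S8 lay below R1 by 0.17 (difference -0.17, adjusted p = 0.160).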

How the results depend on the processing

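Sp5 kept its direction against R1 in all 18 alternatives in 16-6 and 32 and in all 16 in S8 and T2. Several alternatives, such as those of the fold minimum, the filter or the trend, cannot change a difference. The same holds for leaving out a replicate of a line outside the comparison. With no fold minimum the members called numbered 6, 7, 7 and 3 in 16-6, 32, S8 and T2 against R1, 8 for 16-6 against 32, 4 for S8 against T2 and 9 across the 5 lines, and the pathway genes 59, 61, 62, 59, 58 and 40. For single pairs these counts stand without a share of all genes and are not read as a result. With equal library totals 1 member was called for 32 against R1 (Lef1) and 1 for 16-6 against 32 (Sp5). Pseudocount 0.1 called 1 member for 16-6 against 32, 22 pathway genes for 32 against R1 and 8 for S8 against T2. Quantile normalization called 0 members for S8 against T2, where Sp5 was at -0.97, and 1 across the lines. It also ended the calls of Cdh1 in T2 (0.9997), Dkk2 in 32 (-0.998) and Tle2 in S8 (-0.98). Across the lines 1 member, Sp5, was called without S8 and T2, and 1 on implied fragments, an alternative chosen after seeing the data, which also called 1 for 16-6 against 32.

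Replicate numbers did not pair the libraries: same-numbered deviations correlated at -0.10, 0.00 and 0.03 between the 3 replicated lines. The fit with the replicate block, over 6 libraries, called 1 member across the lines and kept the calls of the members in the other comparisons it allows.

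Directions turned for the following differences. Under quantile normalization Ctnnb1 was at -0.12 in 32 and -0.12 in T2 against R1, 0.034 for 16-6 against 32 and -0.0067 for 32 against T2, Axin2 at 0.36 in 32 and 0.10 in S8, Tcf7 at 0.016 in 32, and Nkd1 at 0.046 in 16-6 and 0.049 for S8 against T2. With equal library totals Ctnnb1 was at -0.19 in 32, 0.16 for 16-6 against 32 and -0.31 for 32 against T2, Axin2 at -0.0011 for 32 against S8, Lef1 at 0.077 in T2, Tcf7 at 0.064 and Tcf7l1 at 0.10 for 16-6 against 32, Tcf7l2 at -0.033 in 32, and Sfrp1 at -0.021 in 32, -0.0697 for S8 against T2 and -0.17 for 32 against S8. With equal medians Axin2 was at 0.043 and Tcf7 at 0.057 in 32. On implied fragments Axin2 was at -0.10 in T2 and 0.33 for 16-6 against T2, Lef1 at -0.17, Tcf7 at -0.032 and Sfrp1 at -0.29 in S8, Sfrp1 at -0.40 in T2, and Tcf7l1 at 0.0090 for 32 against S8. Leaving out single replicates, Ctnnb1 ran from -0.057 to 0.0092 in 16-6 and from -0.0302 to 0.036 in T2, Axin2 from -0.029 to 0.0115 in 32 and from -0.059 to 0.0014 for 16-6 against T2, Tcf7 from -0.058 to 0.047 in 32 and Sfrp1 from -0.034 to 0.057 for 32 against S8. The cause of these turns was not tested beyond the construction of each setting. Equal totals shifted the median gene to -0.31 for 32 against R1 and to 0.21 for 16-6 against 32. The 10 most abundant genes held 26.5% and 25.3% of the total in 32, 19.2% and 20.4% in R1.

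S8 and T2 rest on 1 library each, the fit has 3 residual degrees of freedom, and Dkk1, Nkd1 and Sp5 in S8 rest on few fragments.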
